A study of Mus musculus with 20 samples.

Results

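The genes described here mark the lymphocytes of the kidney. They are 35 of the 55471 genes in the count table, 26 of them genes of T cells and natural killer (NK) cells and 9 of them genes of B cells and plasma cells. They were taken by gene symbol, and the T and NK genes were kept apart from the B and plasma cell genes throughout.

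T cells recognise antigen through a T cell receptor, whose alpha and beta chains signal through the CD3 chains to the kinases LCK and ZAP70. CD4 and CD8 mark helper and cytotoxic T cells, FOXP3 marks regulatory T cells, and NK cells and cytotoxic T cells kill with granzymes and perforin. B cells carry immunoglobulin on their surface together with CD79A and CD79B, and mature into plasma cells that secrete it, joined by the J chain when it is IgA or IgM. A healthy kidney holds few lymphocytes, and they accumulate in its interstitium in many forms of kidney injury.

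Whole kidneys of female mice, all 2 months old, gave 20 RNA-seq libraries in 6 groups. In the transgenic experiment, on a mixed background, i-TERTci mice (3 libraries) were set against actin-rtTA+ mice (4 libraries). i-TERTci mice are heterozygous for an actin promoter-driven reverse tetracycline transactivator, active in cells of all kinds, and for a catalytically inactive telomerase reverse transcriptase (TERTci) under its control. The actin-rtTA+ mice carry the transactivator alone. Both groups drank 2 mg/ml doxycycline for 15 days and were then taken off it for 8 days (R8). In the Adriamycin (ADR) experiment, on a Balb/c background, TERT WT/WT ADR mice (3 libraries) were set against TERT WT/WT saline mice (4 libraries), and TERT KO/KO ADR mice (3 libraries) against TERT KO/KO saline mice (3 libraries). ADR, or doxorubicin, injures podocytes, the filtering cells of the glomerulus. It was injected once into the blood at 12 mg/kg on day 0, with saline in the control mice, and kidneys were taken on day 18. The knockout is constitutive, in mice of the first generation that lacks TERT, and TERT WT/WT mice are littermates.

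Each library held between 39323498 and 48399322 counts over between 21092 and 25991 genes. A single library, replicate 2 of the TERT KO/KO ADR group by its label, held liver transcripts. Albumin, a product of hepatocytes, took 26.1% of its counts, a list of hepatocyte and Kupffer cell genes summed to 312410 CPM (counts scaled to a common library total) against at most 155 CPM in every other library, and the podocyte gene Nphs1 had 2 counts. It was left out of all group values and fits here unless its return is stated, so TERT KO/KO ADR is represented by 2 mice. Tert had between 230 and 1086 counts in i-TERTci libraries, against between 87 and 164 in actin-rtTA+ libraries. It had between 105 and 210 counts in the TERT KO/KO ADR libraries used and between 51 and 132 in TERT KO/KO saline libraries. TERT WT/WT ADR libraries held between 164 and 379 Tert counts and TERT WT/WT saline libraries between 122 and 187. A count over the whole gene does not show which exons were read, so it checks no deletion.

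The constant genes of the T cell receptor beta chain are shown because nearly all of their shared first coding exon is the same, which bears on how far Trbc1 and Trbc2 counts can be told apart. The exons hold 375 bases each, at chr6:41538218-41538592 and chr6:41546730-41547104 on the plus strand of GRCm38, and differ at 1 base (99.7% identical). The last 150 bases of each exon follow, 5′ to 3′, with the differing base in capitals.

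Trbc1: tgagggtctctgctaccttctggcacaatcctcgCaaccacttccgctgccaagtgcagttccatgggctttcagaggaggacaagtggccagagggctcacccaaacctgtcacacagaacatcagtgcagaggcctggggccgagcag
Trbc2: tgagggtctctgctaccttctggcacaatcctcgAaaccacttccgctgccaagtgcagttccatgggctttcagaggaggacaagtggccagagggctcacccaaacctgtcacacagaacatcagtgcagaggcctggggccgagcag

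A read that lies within this exon and misses the capital fits both genes, so the counts of the pair are given as uncertain in their split.

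Promoters are shown for 4 genes that were higher after ADR in TERT WT/WT kidneys. Each is the run of 250 bases just before the start of the RefSeq gene in GRCm38.p6, printed in the direction of transcription, and all 4 genes lie on the minus strand. Capitals mark matches, on either strand, to the letters AGGAAGT (a form of the ETS motif), TGTGGT (the RUNX core), CAGGTG (a form of the E-box) and ATTTGCAT (the octamer). The places are chr9:44980432-44980681 for Cd3g, chr15:9529877-9530126 for Il7r, chr6:129623865-129624114 for Klrk1 and chr5:88527898-88528147 for Jchain.

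Cd3g: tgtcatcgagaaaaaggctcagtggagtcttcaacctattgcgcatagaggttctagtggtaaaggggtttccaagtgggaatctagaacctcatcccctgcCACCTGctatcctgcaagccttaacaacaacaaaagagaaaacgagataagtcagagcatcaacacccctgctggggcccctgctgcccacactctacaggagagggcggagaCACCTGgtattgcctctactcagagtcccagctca
Il7r: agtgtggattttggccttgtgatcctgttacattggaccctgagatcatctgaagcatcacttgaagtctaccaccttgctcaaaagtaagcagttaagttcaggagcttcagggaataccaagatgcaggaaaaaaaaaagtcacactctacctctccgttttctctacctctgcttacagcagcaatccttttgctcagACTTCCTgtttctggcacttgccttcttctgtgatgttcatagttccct
Klrk1: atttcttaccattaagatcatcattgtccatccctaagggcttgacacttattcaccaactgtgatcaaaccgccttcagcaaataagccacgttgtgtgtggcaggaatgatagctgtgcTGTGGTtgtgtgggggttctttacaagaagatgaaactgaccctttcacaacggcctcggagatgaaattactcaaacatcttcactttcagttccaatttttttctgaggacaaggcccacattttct
Jchain: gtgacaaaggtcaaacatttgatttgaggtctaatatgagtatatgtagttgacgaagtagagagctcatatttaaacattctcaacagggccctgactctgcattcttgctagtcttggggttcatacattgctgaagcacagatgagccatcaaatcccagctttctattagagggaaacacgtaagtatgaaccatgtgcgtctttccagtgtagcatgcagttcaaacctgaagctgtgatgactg

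The table of promoters held 21 of the 35 genes. Some of these have more than 1 start, so the 21 genes had 26 windows. The RUNX core was in 10 of the 26 windows (9 of the 21 genes) and in 14.0% of the 32851 windows of all genes. The E-box form was in 10 of the 26 windows (9 genes) and 17.2% of all windows. The ETS form was in 7 of the 26 windows (6 genes) and 7.69% of all windows. The octamer, which binds factors of B cells, was in none of the 21 and in 1.60% of all windows. Of the B and plasma cell genes only Cd79a, Jchain and Pax5 were among the 21, so few B cell promoters were searched. These matches describe letters only.

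Some T and NK genes were higher in TERT WT/WT kidneys 18 days after ADR than after saline. Of the 23 genes tested, 7 passed as higher (30.4%) and 0 as lower, against 15.2% higher and 12.0% lower of all 19023 genes tested. The 7 were Cd3g, Trbc1, Cd8b1, Lck, Foxp3, Il7r and Klrk1. The median log2 fold change over the 23 genes was 0.98, against 0.01 over all genes tested. Values below are CPM scaled by the trimmed mean of M-values (TMM), 1 value per mouse, and a gene passed at an adjusted p under 0.05 (edgeR quasi-likelihood test, Benjamini-Hochberg over all genes tested). In whole kidney, fewer cells of a type and less RNA per cell cannot be told apart.

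Foxp3, the transcription factor of regulatory T cells, had 0.859, 1.61 and 0.729 CPM in TERT WT/WT ADR kidneys, against 0.227, 0.127, 0.111 and 0.105 CPM in TERT WT/WT saline kidneys. All 3 ADR kidneys lay above all 4 saline kidneys. The log2 fold change was 2.87 ± 0.52 (SE, adjusted p = 0.0033), the largest of the T and NK genes that passed. The exons of Foxp3 hold 4577 bases, and their overlaps with exons of neighbouring genes, on both strands, sum to 2082 bases. A base shared with more than 1 neighbour is counted more than once in that sum. The strand setting of the counting was not given in the sources used here.

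Cd3g, a signalling chain of the receptor complex, had 1.12, 2.81 and 2.36 CPM in TERT WT/WT ADR kidneys, against 0.817, 0.361, 0.376 and 0.340 CPM in TERT WT/WT saline kidneys. The groups did not overlap, although ADR kidney 1 and saline kidney 1 came close. Its log2 fold change was 2.14 ± 0.55 (adjusted p = 0.0145). The other chains of the complex, Cd3d and Cd3e, averaged 0.5 ± 0.0805 and 1.08 ± 0.584 CPM after ADR (SD, n = 3), against 0.171 ± 0.133 and 0.624 ± 0.159 CPM after saline (n = 4), and did not pass.

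Trbc1, a constant gene of the receptor beta chain, had 1.05, 2.38 and 1.42 CPM in TERT WT/WT ADR kidneys, against 0.567, 0.680, 0.465 and 0.340 CPM in TERT WT/WT saline kidneys (log2 fold change 1.64 ± 0.57, adjusted p = 0.0492). Trbc2, its near copy, had 0.906, 1.99 and 1.25 CPM after ADR, against 0.840, 0.892, 0.531 and 0.523 CPM after saline, and did not pass. Neither gene overlapped between the groups, and in both genes ADR kidney 2 was the highest.

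Lck, the kinase that starts receptor signalling, had 1.96, 3.29 and 3.12 CPM in TERT WT/WT ADR kidneys, against 1.32, 1.47, 1.08 and 1.12 CPM in TERT WT/WT saline kidneys. Its log2 fold change was 1.16 ± 0.28 (adjusted p = 0.0116), with no overlap between the groups. Zap70, the kinase that acts after LCK, averaged 0.905 ± 0.257 CPM after ADR and 0.468 ± 0.0707 CPM after saline and did not pass. Il7r, the receptor for the survival cytokine interleukin 7, had 0.620, 1.31 and 1.90 CPM after ADR, against 0.272, 0.446, 0.266 and 0.418 CPM after saline (log2 fold change 1.87 ± 0.57, adjusted p = 0.0303).

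Of the other receptors of T cells, Cd2 averaged 1.14 ± 0.424 CPM after ADR and 0.424 ± 0.0834 CPM after saline, and the costimulatory receptor Cd28 averaged 0.327 ± 0.249 and 0.474 ± 0.124 CPM. Icos, Cd27 and Il2rb had higher means after ADR, and none of these 5 genes passed.

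The coreceptor genes differed among themselves. Cd8b1, the CD8 beta chain, had 0.811, 0.975 and 1.12 CPM in TERT WT/WT ADR kidneys, against 0.590, 0.255, 0.243 and 0.314 CPM in TERT WT/WT saline kidneys (log2 fold change 1.46 ± 0.42, adjusted p = 0.0235). Cd8a averaged 2.19 ± 0.436 CPM after ADR and 1.67 ± 0.327 CPM after saline, and Cd4 averaged 3.28 ± 0.996 and 2.19 ± 0.554 CPM. Neither Cd8a nor Cd4 passed.

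Among NK and cytotoxic genes, Klrk1, which encodes the activating receptor NKG2D, was the only gene that passed in this comparison. It had 0.405, 1.27 and 0.932 CPM in TERT WT/WT ADR kidneys, against 0.272, 0.255, 0.221 and 0.183 CPM in TERT WT/WT saline kidneys (log2 fold change 1.89 ± 0.66, adjusted p = 0.0496). The granule genes Gzma, Gzmb, Prf1 and Nkg7 did not pass. Prf1, which encodes perforin, averaged 0.342 ± 0.0319 CPM after ADR and 0.538 ± 0.0862 CPM after saline. Ncr1, the NK receptor NKp46, was at 0 counts in ADR kidney 1 and at 0.227 and 0.0509 CPM in the other two. Ctla4, Ifng and Klrb1c had too few counts to be tested, and Ifng was at 0 counts in all 3 ADR kidneys.

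Replicate 1 of the TERT WT/WT ADR group was the lowest of its group for 20 of the 25 T and NK genes with a count, and its proximal tubule marker genes summed to 14645 CPM, against 4635 and 3445 CPM in the other ADR kidneys and between 17992 and 20984 CPM after saline. Without that kidney 12 T and NK genes passed, all higher, while of all 18974 genes tested 4046 were higher and 3764 lower. With it kept, the number was 1 without ADR replicate 2, and 3 without ADR replicate 3 or without saline replicate 2, 3 or 4. Over all genes the higher calls were then 1309 without ADR replicate 2 and 1759 without ADR replicate 3. Erythroid markers, the globin genes and Alas2 of red blood cells and their precursors, were higher in the same comparison for 5 of 5 genes (median log2 fold change 1.91). They summed to 1457, 2354 and 3763 CPM in TERT WT/WT ADR kidneys, against between 419 and 839 CPM in TERT WT/WT saline kidneys, with ADR kidney 1 again the lowest of its group. In TERT KO/KO kidneys 0 of the 5 passed (median -0.54), with sums of 759 and 602 CPM after ADR, against between 468 and 1754 CPM after saline. The part of blood in the T, NK, B and plasma cell results was not tested.

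Foxp3 passed under all 15 alternatives in which it was tested, Lck under 14 of 16, Cd3g under 13 of 16, and Klrk1 under 6 of 15.

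**Figure D1:**
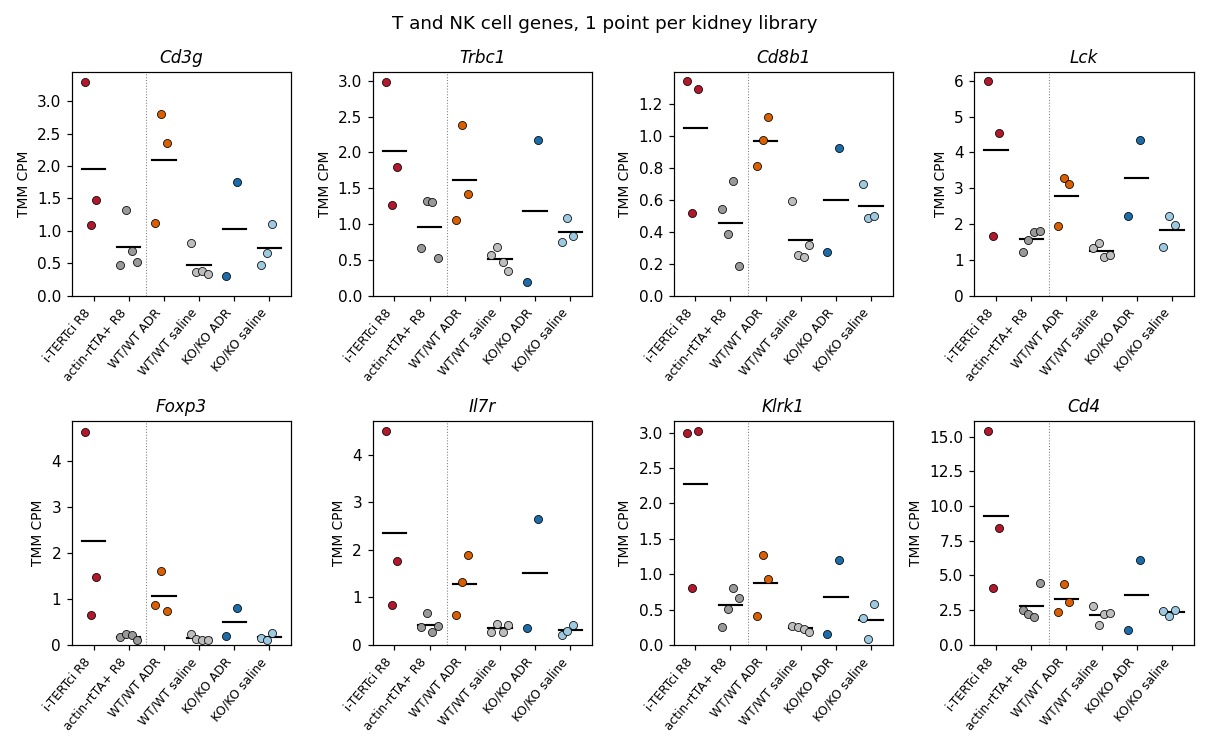
Level of 8 T and NK genes in each library, in TMM-scaled CPM on the vertical axes, by group on the horizontal axes, with 1 point per mouse and a black line at the group mean. TERT WT/WT ADR kidneys lie above TERT WT/WT saline kidneys for Foxp3, Cd3g, Trbc1, Lck, Cd8b1, Il7r and Klrk1, and the 3 i-TERTci kidneys are spread widely, as for Foxp3 at 4.65, 0.647 and 1.48 CPM.

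In TERT KO/KO kidneys the same injury gave 0 of 23 T and NK genes that passed in either direction with edgeR, and 4 at an unadjusted p under 0.05, all higher. Of all 19023 genes tested, 3.83% were higher and 1.43% lower. DESeq2 called Icos and Il7r, and limma voom called 1 gene. Of all genes DESeq2 called 1341 as higher and 855 as lower of 18997, and limma voom 1020 and 536 of 19023. The 2 ADR kidneys differed strongly from each other, since replicate 3 had more than replicate 1 for 25 of the 26 genes.

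Cd4 had 1.08 and 6.15 CPM in TERT KO/KO ADR kidneys, against 2.43, 2.07 and 2.54 CPM in TERT KO/KO saline kidneys, and Il7r had 0.359 and 2.66 CPM, against 0.210, 0.284 and 0.415 CPM. Replicate 3 was above and replicate 1 within or below the range of the saline kidneys. Foxp3 had 0.190 and 0.809 CPM, against 0.140, 0.114 and 0.249 CPM, with the same order of the ADR kidneys. Lck was above saline in both, at 2.24 and 4.35 CPM, against 1.35, 2.21 and 1.96 CPM after saline, but replicate 1 by little. Macrophage markers differed in the same order, with sums of 320 and 891 CPM in these ADR kidneys, against between 248 and 273 CPM after saline, and their part in the result was not tested.

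Leaving out TERT KO/KO ADR replicate 1 leaves a single ADR mouse, replicate 3. The log2 fold changes were then 3.12 for Il7r, 2.93 for Icos, 1.5 for Il2rb, 1.38 for Cd4 and 2.25 for Foxp3. They were 0.269 for Cd8a and 0.0133 for Gzmb. ICOS is a costimulatory receptor of activated T cells, and IL2RB is a chain of the receptors for interleukins 2 and 15. These values rest on replicate 3 alone, the higher ADR mouse for 25 of the 26 genes.

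Between genotypes no T or NK gene passed, neither after saline nor after ADR, and the difference in the ADR effect between the genotypes had 0 calls among the 23 genes, 0 of them at an unadjusted p under 0.05, and 0 calls among all 19023 genes (0%). Over all genes that difference had an unadjusted p under 0.05 for 2288, and DESeq2 called 80 as higher and 58 as lower, with 0 T or NK genes among them. Of all genes, 0.00526% differed between TERT KO/KO saline and TERT WT/WT saline kidneys and 0.0736% between TERT KO/KO ADR and TERT WT/WT ADR kidneys. The largest difference in the ADR effect by p among the T and NK genes was that of Cd8b1, at -1.36 ± 0.66 on the log2 scale (adjusted p = 0.43). The T and NK results of the ADR effect thus passed in TERT WT/WT kidneys and not in TERT KO/KO kidneys, and the difference itself did not pass.

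In the transgenic experiment, T and NK genes were higher in the average i-TERTci kidney than in the average actin-rtTA+ kidney, and the i-TERTci kidneys differed widely from each other. With edgeR 0 of the 24 genes tested passed, against 0.00564% of all 17745 genes as higher and 0% as lower. Of the 24, 21 were higher at an unadjusted p under 0.05, and their median log2 fold change was 1.5, against 0.02 over all genes. DESeq2 called 12 and limma voom with sample quality weights 23, all higher. These tests also called many of all genes. DESeq2 gave 1512 higher and 422 lower of 17732, and limma voom 3497 higher and 2551 lower of 17745. Ctla4 and Ifng had too few counts to be tested.

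Foxp3 had 4.65, 0.647 and 1.48 CPM in i-TERTci kidneys, against 0.172, 0.229, 0.207 and 0.104 CPM in actin-rtTA+ kidneys (log2 fold change 3.66 ± 0.67, adjusted p = 0.076). All i-TERTci kidneys were above all controls, and replicate 1 was far above the other two. Cd28, the main costimulatory receptor of T cells, had 0.973, 0.673 and 1.05 CPM, against 0.151, 0.204, 0.230 and 0.250 CPM (log2 fold change 2.10 ± 0.34, adjusted p = 0.076). Cd2, an adhesion receptor, had 3.22, 1.35 and 2.64 CPM, against 0.345, 0.739, 0.368 and 0.771 CPM (2.11 ± 0.43, adjusted p = 0.076).

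These genes, like Cd27 and Il7r, did not overlap between the groups. Cd4 had 15.4, 4.12 and 8.44 CPM in i-TERTci kidneys, against 2.48, 2.22, 2.00 and 4.48 CPM in actin-rtTA+ kidneys, with replicate 2 inside the range of the controls. Il2rb had 9.17, 2.48 and 8.19 CPM, against 2.09, 2.24, 1.96 and 2.15 CPM. Replicate 2 was again the lowest and lay only just above the controls.

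Replicate 2 was also the lowest i-TERTci kidney for Trbc2, Lck and Klrk1. Trbc2 had 3.29, 0.984 and 2.06 CPM in i-TERTci kidneys, against 0.603, 0.663, 0.760 and 0.750 CPM in actin-rtTA+ kidneys (adjusted p = 0.082), with no overlap. Lck had 6.003, 1.66 and 4.56 CPM, against 1.21, 1.55, 1.77 and 1.81 CPM (adjusted p = 0.11), with replicate 2 inside the range of the controls. Klrk1 had 3.00, 0.802 and 3.02 CPM, against 0.259, 0.510, 0.806 and 0.667 CPM (adjusted p = 0.089), and replicate 2 again fell among the controls.

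Cd8a kept another order than Cd4, with 1.83, 1.92 and 5.14 CPM in i-TERTci kidneys, against 1.57, 1.20, 1.98 and 1.48 CPM in actin-rtTA+ kidneys (adjusted p = 0.22), so that replicate 3 alone was above the controls. Ncr1 had 0.671, 0.207 and 1.29 CPM, against 0.0862, 0.102, 0.230 and 0.396 CPM (adjusted p = 0.18). Gzma, a granzyme of NK and cytotoxic T cells, had 0.855, 0.311 and 2.23 CPM, against 0.366, 1.12, 0.322 and 0.917 CPM (adjusted p = 0.55), and again only replicate 3 was above all controls.

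Replicate 2 was the lowest i-TERTci kidney for 24 of the 26 T and NK genes. Of the granule genes, Gzmb averaged 0.441 ± 0.119 CPM in i-TERTci kidneys (n = 3) and 0.521 ± 0.183 CPM in actin-rtTA+ kidneys (n = 4). Prf1 averaged 1.11 ± 0.536 and 0.735 ± 0.233 CPM, and of the settings tried only limma voom called it. Nkg7, a granule membrane protein gene, had 2.05, 1.81 and 3.21 CPM, against 0.517, 1.1, 1.5 and 0.833 CPM. The groups did not overlap for Nkg7, which edgeR did not call (log2 fold change 1.26 ± 0.39, adjusted p = 0.12) and DESeq2 called as higher (1.24, adjusted p = 0.032).

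Without i-TERTci replicate 2, 20 of 25 T and NK genes passed, all higher, led by Il2rb (log2 fold change 2.03), Foxp3 (4.09) and Lck (1.73). Over all genes 2777 were then higher and 1548 lower. Leaving out any other kidney gave 0. The summed T and NK CPM was 93.1, 21.4 and 65.8 in i-TERTci kidneys 1 to 3, against between 14.8 and 19.98 in actin-rtTA+ kidneys. Macrophage markers summed to 2205, 299 and 1086 CPM in the same kidneys, against between 243 and 295 CPM, and proximal tubule markers to 3591, 28334 and 17978 CPM, against between 25777 and 31135 CPM. Erythroid markers summed to 934, 2621 and 2414 CPM, against between 595 and 1145 CPM. The kidney with T and NK genes nearest to the controls was thus also nearest to them in macrophage and tubule markers, and the part of those cells in the result was not tested.

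**Figure D2:**
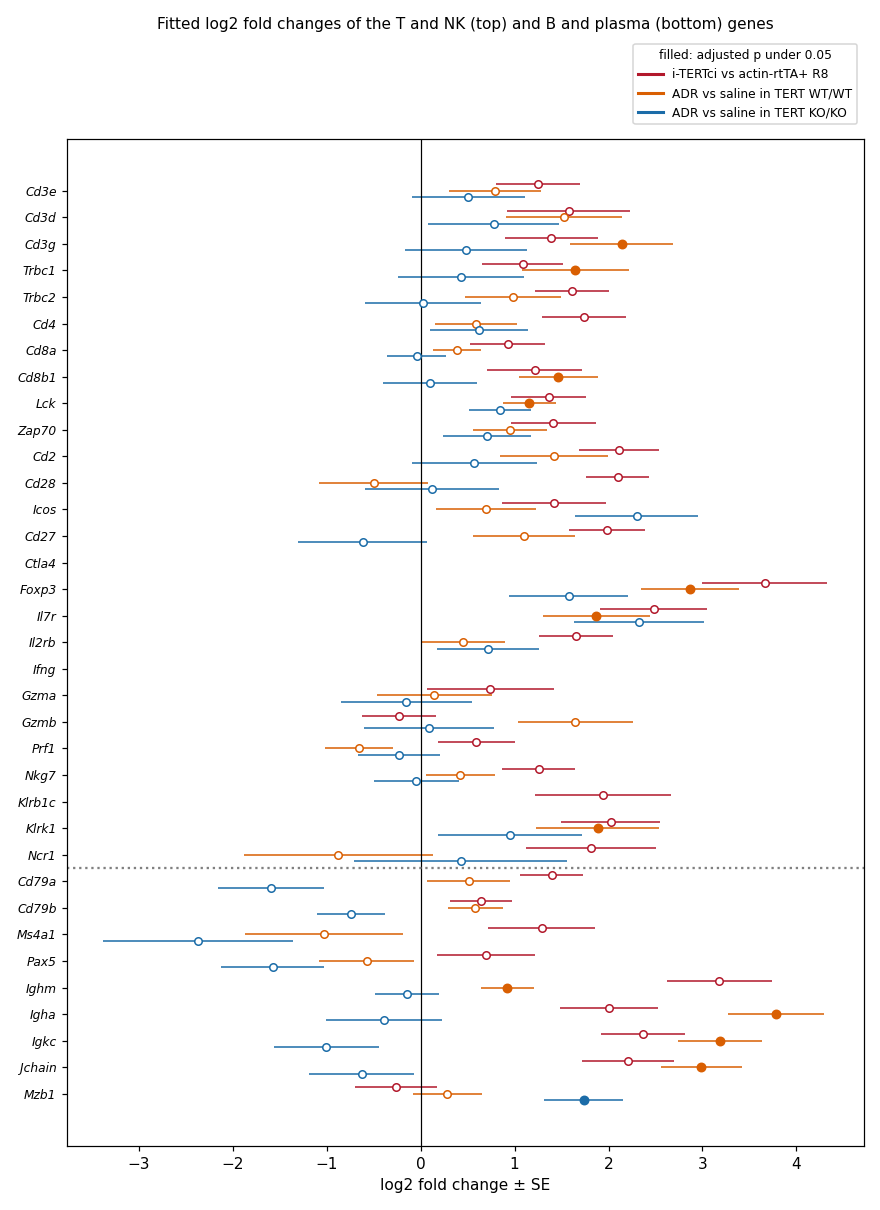
Log2 fold change of each gene tested (horizontal axis, points, with the standard error as bars) for i-TERTci against actin-rtTA+, ADR against saline in TERT WT/WT and ADR against saline in TERT KO/KO, with T and NK genes above the dotted line and B and plasma cell genes below it. Filled points passed at an adjusted p under 0.05: 0 genes in the first comparison, 7 T and NK and 4 B and plasma cell genes in the second, and Mzb1 alone in the third.

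Per kilobase of exon, the scale on which genes can be compared, the T cell receptor beta genes were among the highest T and NK genes in every group. Trbc2 averaged 3.05 CPM per kilobase in i-TERTci kidneys and 1.00 in actin-rtTA+ kidneys. Trbc1 averaged 2.16 in TERT WT/WT ADR kidneys and 0.685 in TERT WT/WT saline kidneys. Klrb1c, which encodes the NK marker NK1.1 of some strains, averaged 0.706 ± 0.545 CPM in i-TERTci kidneys and 0.184 ± 0.0732 CPM in actin-rtTA+ kidneys, and at most 0.0482 CPM in any group mean of the Balb/c experiment. The share of Cd8a in the counts of Cd8a and Cd4 together was 49.2%, 28.1% and 45.0% in TERT WT/WT ADR kidneys, against between 35.1% and 52.4% after saline. In i-TERTci kidney 1 it was 10.6% (95% Wilson interval 8.87% to 12.6%, counting error only), against between 24.8% and 49.7% in actin-rtTA+ kidneys, whereas i-TERTci kidneys 2 and 3 lay within that range at 31.8% and 37.8%.

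Of those of the 35 genes that passed after ADR in TERT WT/WT kidneys, the B and plasma cell genes Igha, Igkc and Jchain had the largest differences. In TERT WT/WT kidneys 4 of the 9 genes tested passed as higher (44.4%) and 0 as lower, beside the 15.2% and 12.0% of all genes. They were Igha, the constant gene of the IgA heavy chain, Igkc, that of the kappa light chain, Jchain, the joining chain of secreted IgA and IgM, and Ighm, the heavy chain gene of IgM.

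Igha had 45.2, 126 and 132 CPM in TERT WT/WT ADR kidneys, against 4.99, 14.4, 4.74 and 5.23 CPM in TERT WT/WT saline kidneys. The lowest ADR kidney, replicate 1, was still above the highest saline kidney, replicate 2. The log2 fold change was 3.78 ± 0.51 (adjusted p = 0.0013), the largest of the 35 genes in this comparison. Igkc had 52.2, 121 and 97.0 CPM after ADR, against 7.31, 16.3, 4.20 and 11.7 CPM after saline (log2 fold change 3.19 ± 0.45, adjusted p = 0.00142).

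Jchain had 6.18, 17.1 and 16.8 CPM in TERT WT/WT ADR kidneys, against 1.5, 2.63, 0.752 and 1.83 CPM in TERT WT/WT saline kidneys (log2 fold change 2.99 ± 0.43, adjusted p = 0.00141). In all 3 genes the groups did not overlap and ADR kidney 1 was the lowest of its group. Ighm differed less, with 11.5, 22.7 and 16.6 CPM after ADR, against 9.65, 9.01, 7.83 and 9.25 CPM after saline (log2 fold change 0.92 ± 0.28, adjusted p = 0.0287). Igha, Igkc and Jchain passed under all 16 alternatives tried, and Ighm under 8 of 16.

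Cd79a, Cd79b, Ms4a1, Pax5 and Mzb1 did not pass. Cd79b averaged 1.64 ± 0.255 CPM in TERT WT/WT ADR kidneys (n = 3) and 1.09 ± 0.128 CPM in TERT WT/WT saline kidneys (n = 4), and Cd79a 0.590 ± 0.220 and 0.407 ± 0.151 CPM. Pax5, the transcription factor that holds B cell identity, averaged 0.105 ± 0.0270 and 0.159 ± 0.0723 CPM. Ms4a1, which encodes CD20, averaged 0.0566 ± 0.0708 and 0.119 ± 0.0796 CPM. Mzb1, a chaperone of antibody secretion, had 0.334, 0.793 and 0.441 CPM after ADR, against 0.431, 0.446, 0.465 and 0.366 CPM after saline.

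**Figure D3:**
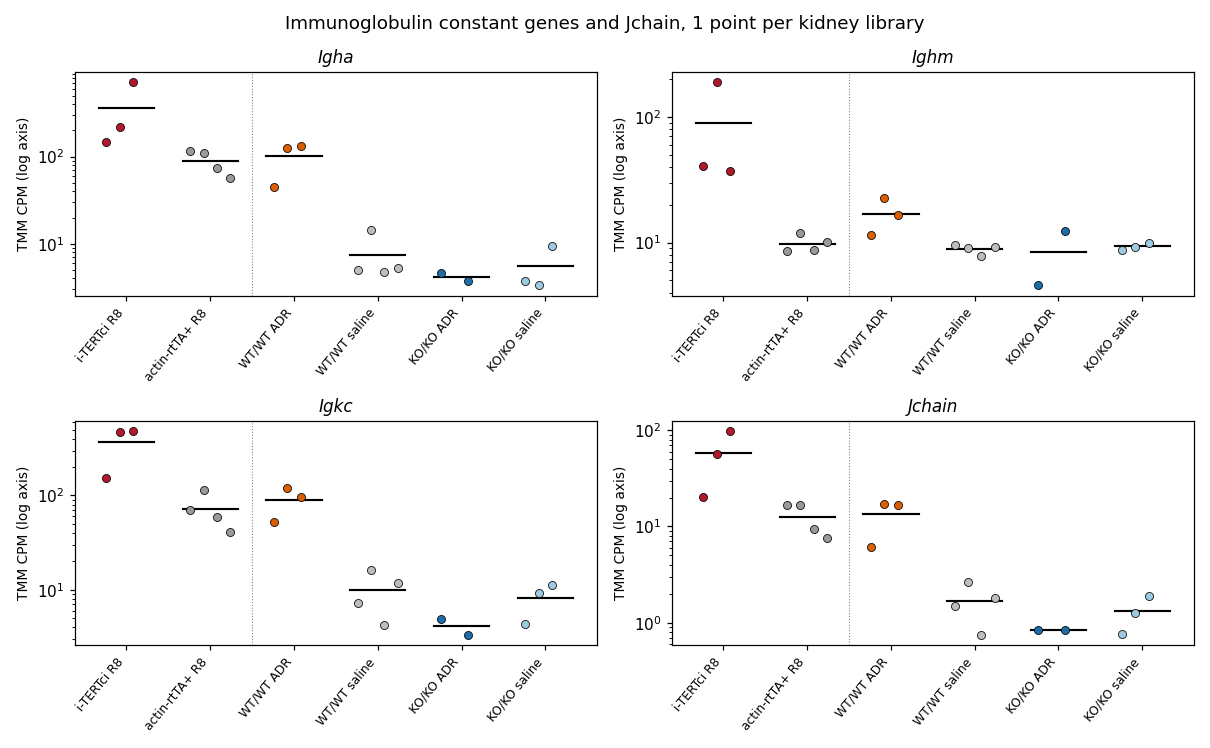
Level of Igha, Ighm, Igkc and Jchain in each library, in TMM-scaled CPM on logarithmic vertical axes, by group on the horizontal axes, with 1 point per mouse and a line at the arithmetic group mean. TERT WT/WT ADR kidneys lie above TERT WT/WT saline kidneys in all 4 genes, whereas both TERT KO/KO ADR kidneys lie within or below the range of TERT KO/KO saline kidneys for Igkc and within it for Igha and Jchain.

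In TERT KO/KO kidneys Igha, Igkc and Jchain were not higher after ADR. Igha had 4.62 and 3.78 CPM in TERT KO/KO ADR kidneys, against 3.76, 3.32 and 9.45 CPM in TERT KO/KO saline kidneys. Igkc had 4.83 and 3.33 CPM, against 4.32, 9.14 and 11.2 CPM, and Jchain 0.844 and 0.848 CPM, against 0.770, 1.28 and 1.91 CPM. Both ADR kidneys lay within the range of the saline kidneys for Igha and Jchain, and within or below it for Igkc. This holds also for replicate 3, whose T cell genes were high.

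The B cell genes Cd79a, Cd79b, Ms4a1 and Pax5 had lower means after ADR in these kidneys, 3 of them at an unadjusted p under 0.05, and none passed. Cd79a had 0.106 and 0.405 CPM in TERT KO/KO ADR kidneys, against 0.677, 0.738 and 0.940 CPM in TERT KO/KO saline kidneys (log2 fold change -1.59 ± 0.56, adjusted p = 0.11). Pax5 had 0.106 and 0.173 CPM, against 0.327, 0.369 and 0.581 CPM (-1.58 ± 0.55, adjusted p = 0.11). Both ADR kidneys were below all saline kidneys in both genes.

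Of the 9 genes 1 passed in TERT KO/KO kidneys, Mzb1, with 1.52 and 0.790 CPM after ADR, against 0.257, 0.341 and 0.442 CPM after saline (log2 fold change 1.73 ± 0.42, adjusted p = 0.0367, beside the 3.83% of all genes that were higher). Mzb1 shares 695 of its 1215 exonic bases with Spata24 on the same strand. Spata24 had 1.75 and 1.27 CPM in those ADR kidneys, against 0.838, 1.41 and 0.772 CPM after saline. The call was lost without either replicate 1 of the ADR group or any saline kidney, while it held without ADR replicate 3.

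After ADR the genotypes differed in 3 of the 9 genes, all lower in TERT KO/KO kidneys. The log2 fold change of TERT KO/KO ADR against TERT WT/WT ADR kidneys was -4.59 ± 0.71 for Igha (adjusted p = 0.0478), -4.47 ± 0.64 for Igkc (adjusted p = 0.0362) and -3.98 ± 0.60 for Jchain (adjusted p = 0.0362). These 3 are among the 14 of 19023 genes (0.0736%) that passed in this comparison. Igha averaged 4.20 ± 0.598 CPM in TERT KO/KO ADR kidneys (n = 2) and 101 ± 48.6 CPM in TERT WT/WT ADR kidneys (n = 3). The share of all genes without overlap between these groups was not counted, and these 3 genes, called on the same values, did not overlap. Erythroid markers moved with them, as all 5 were lower in TERT KO/KO ADR than in TERT WT/WT ADR kidneys at an unadjusted p under 0.05 (median log2 fold change -1.79), though none passed, and all 5 had a negative genotype difference in the ADR effect at an unadjusted p under 0.05 (median -2.43).

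The calls rested on few mice. The number of calls among the 9 genes was 3 without TERT WT/WT ADR replicate 1, 1 without its replicate 3 and 0 without its replicate 2. Over all genes 463 were higher and 319 lower without replicate 1. The numbers were 20 and 3 without replicate 3, and 2 and 2 without replicate 2. Leaving out a TERT KO/KO ADR replicate leaves 1 mouse in that group, so no count is given for it. Calls among the 9 genes were also 0 with limma voom, with the compared groups fitted alone and with the replicate block. They were 0 with no filter and with the left-out library kept, and 3 with DESeq2. Over all genes limma voom called 3 as higher and 1 as lower, the replicate block 1 and 0, and no filter 32 and 9. DESeq2 called 72 and 66. With the compared groups alone, or with the left-out library kept, 0 of all genes were called. In saline kidneys 0 of the 9 genes differed between the genotypes with edgeR and DESeq2. With limma voom 3 did, beside 1029 higher and 1237 lower of all 19023 genes. The smallest p with edgeR was that of Pax5 (log2 fold change 1.42 ± 0.44, adjusted p = 0.56). Pax5 had 0.327, 0.369 and 0.581 CPM in TERT KO/KO saline kidneys, against 0.204, 0.0850, 0.111 and 0.235 CPM in TERT WT/WT saline kidneys. The overlaps of its exons with genes on the opposite strand sum to 761 bases.

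The genotype difference in the ADR effect was -4.17 ± 0.82 on the log2 scale for Igha (adjusted p = 0.17), -4.20 ± 0.74 for Igkc (adjusted p = 0.13) and -3.62 ± 0.72 for Jchain (adjusted p = 0.17), so none of the 9 genes passed with edgeR. DESeq2 called these 3 genes, all lower, beside 80 higher and 58 lower of all 18997 genes. Without TERT WT/WT ADR replicate 1 edgeR called 3 genes of the 9, beside 210 higher and 115 lower of all 18974 genes, instead of 0. Of the 9 genes, 7 had an unadjusted p under 0.05 with edgeR, namely these 3 with Cd79a, Cd79b, Ighm and, in the opposite direction, Mzb1.

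In the transgenic experiment Igha, Igkc, Jchain and Ighm were higher in i-TERTci kidneys than in actin-rtTA+ kidneys on average, with wide spread. With edgeR 0 of the 9 genes passed, beside the 0.00564% of all genes that were higher. At an unadjusted p under 0.05, 5 were higher, DESeq2 called 5 and limma voom 6. Of all genes, DESeq2 called 1512 of 17732 as higher and limma voom 3497 of 17745. The median log2 fold change was 1.4.

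Igha had 147, 217 and 719 CPM in i-TERTci kidneys, against 117, 111, 74.0 and 57.6 CPM in actin-rtTA+ kidneys (log2 fold change 2.00 ± 0.52, adjusted p = 0.089). Igkc had 155, 468 and 480 CPM, against 70.4, 115, 59.0 and 40.9 CPM (2.37 ± 0.45, adjusted p = 0.076). Jchain had 20.2, 56.5 and 97.5 CPM, against 16.5, 16.6, 9.42 and 7.67 CPM (2.21 ± 0.49, adjusted p = 0.076). No i-TERTci kidney overlapped the controls in these genes, and replicate 3 was the highest in each.

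Ighm had 40.4, 190 and 37.0 CPM in i-TERTci kidneys, against 8.64, 11.8, 8.68 and 10.1 CPM in actin-rtTA+ kidneys (log2 fold change 3.18 ± 0.56, adjusted p = 0.076). Here replicate 2, the kidney with the fewest T cell transcripts, was by far the highest. The same kidney led in Cd79a, with 1.56, 3.29 and 1.71 CPM against 0.733, 0.943, 0.691 and 0.937 CPM, and in Ms4a1 and Pax5, so it was the lowest i-TERTci kidney for 24 of 26 T and NK genes and the highest for 4 of 9 B and plasma cell genes. Mzb1 averaged 0.496 ± 0.0398 CPM in i-TERTci kidneys and 0.594 ± 0.329 CPM in actin-rtTA+ kidneys.

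Without i-TERTci replicate 2, 5 of the 9 genes passed as higher: Ighm (log2 fold change 1.97), Igkc (2.15), Igha (2.26), Jchain (2.23) and Cd79a (0.97). Leaving out any other kidney gave 0. The effect of i-TERTci minus that of ADR in TERT WT/WT kidneys, taken across the experiments, passed for 0 of the 34 genes tested with edgeR and DESeq2. With edgeR 0.00505% of all 19783 genes passed. The limma voom fit called 3 T and NK genes, beside 1216 higher and 889 lower of all 19783 genes. The values with the smallest p with edgeR were 2.25 ± 0.64 on the log2 scale for Ighm (adjusted p = 0.43) and 2.59 ± 0.74 for Cd28 (adjusted p = 0.43). The experiments differ in background, so strain and treatment cannot be told apart in that contrast.

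**Figure D4:**
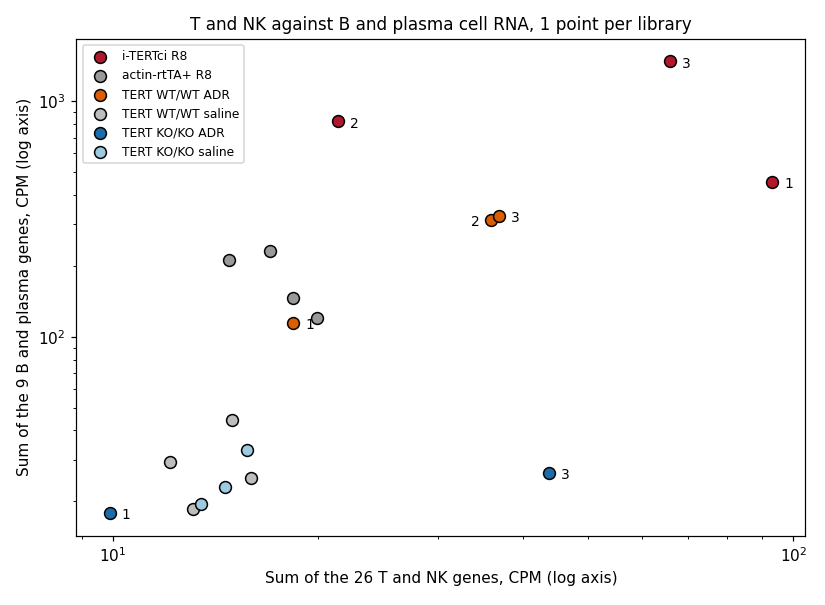
Summed CPM of the T and NK genes (horizontal axis) against that of the B and plasma cell genes (vertical axis) in the 19 libraries used, both axes logarithmic, coloured by group, with replicate numbers beside the i-TERTci and ADR points. TERT KO/KO ADR replicate 3 lies far to the right but low, at 43.8 and 26.5 CPM, and i-TERTci replicate 2 lies to the left but high, at 21.4 and 821 CPM.

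The summed levels of both classes show where they part. TERT KO/KO ADR replicate 3 had 43.8 CPM of T and NK genes, above the 18.4, 35.96 and 36.9 CPM of the TERT WT/WT ADR kidneys, but 26.5 CPM of B and plasma cell genes, against 114, 313 and 325 CPM in those kidneys. TERT KO/KO saline kidneys held between 19.5 and 32.9 CPM of B and plasma cell genes and TERT WT/WT saline kidneys between 18.6 and 44.3 CPM. The sums of B and plasma cell genes were 453, 821 and 1476 CPM in i-TERTci kidneys, against between 120 and 231 CPM in actin-rtTA+ kidneys, which were themselves above every saline kidney of the Balb/c experiment.

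The share of IgA among the heavy chain genes is given with no test. The heavy chain constant genes counted were Ighm, Ighd, Igha, Ighe, Ighg1, Ighg2b, Ighg2c and Ighg3, and no other constant gene was added. Of their counts, Igha took 68.5%, 81.9% and 84.5% in TERT WT/WT ADR kidneys, against 29.2%, 52.0%, 34.97% and 21.4% in TERT WT/WT saline kidneys. It took 46.3% and 22.4% in TERT KO/KO ADR kidneys, against 28%, 20.3% and 43.1% in TERT KO/KO saline kidneys. In i-TERTci kidneys the share of Igha was 67.3%, 43.8% and 91.7%, against between 78.4% and 90.6% in actin-rtTA+ kidneys, and that of Ighm was 38.3% in i-TERTci kidney 2, against between 6.67% and 14.0% in the controls. Igkc took between 90.1% and 99.2% of the light chain constant counts in every library used.

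Variable (V) gene segments, examined after the values above had been seen, gave a count of how many different antibody genes were transcribed. Of 100 annotated kappa V segments, 35, 44 and 52 had at least 3 counts in TERT WT/WT ADR kidneys, against 11, 24, 10 and 22 in TERT WT/WT saline kidneys. In TERT KO/KO ADR kidneys 7 and 4 did, against 8, 5 and 13 in TERT KO/KO saline kidneys. In i-TERTci kidneys 50, 66 and 61 did, against 48, 40, 30 and 40 in actin-rtTA+ kidneys.

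Of 113 heavy chain V segments, 14, 18 and 30 had at least 3 counts in TERT WT/WT ADR kidneys, against 1, 5, 2 and 5 in TERT WT/WT saline kidneys. In TERT KO/KO ADR kidneys 3 and 1 did, against 0, 0 and 1 in TERT KO/KO saline kidneys. In i-TERTci kidneys 25, 41 and 51 did, against 30, 14, 14 and 17 in actin-rtTA+ kidneys, so kidney 1 lay within the range of the controls. Igkv1-110 was the most counted kappa segment in i-TERTci kidneys 1 and 3, at 27.4% and 21.7% of kappa V counts, and in all 4 actin-rtTA+ kidneys, at between 12.9% and 15.2%, whereas in i-TERTci kidney 2 it was Igkv3-2 at 13.2%. More counts give more segments past 3 counts, so these numbers carry the level of the locus as well as its variety. They come with no test.

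**Figure D5:**
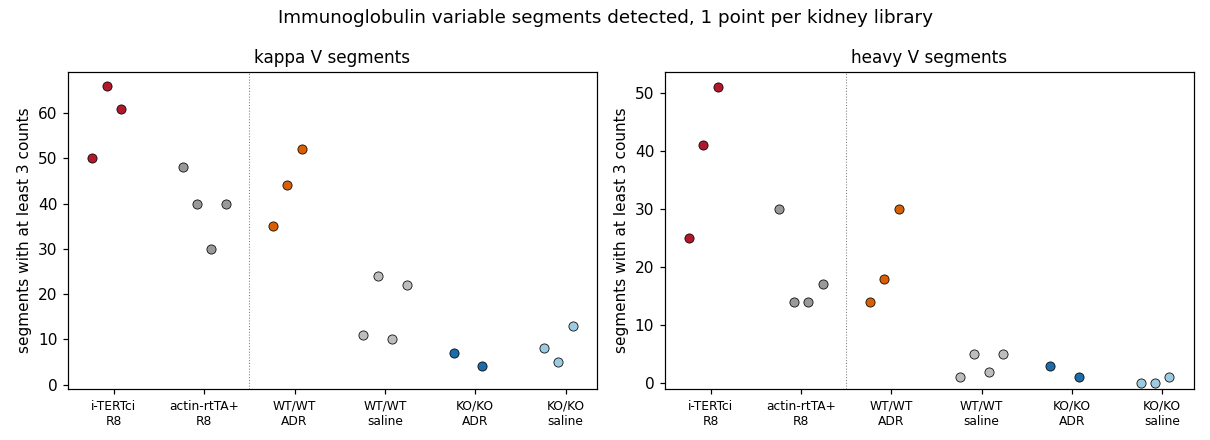
Number of kappa and heavy chain V segments with at least 3 counts in each library (vertical axis), by group (horizontal axis), with 1 point per mouse. TERT WT/WT ADR kidneys show 35 to 52 kappa segments and TERT WT/WT saline kidneys 10 to 24, whereas TERT KO/KO ADR kidneys show 4 and 7.

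Further genes of the same cells were counted in lists, to be read against the 15.2% higher and 12.0% lower of all genes after ADR in TERT WT/WT kidneys and the 3.83% higher and 1.43% lower in TERT KO/KO kidneys. In TERT WT/WT kidneys after ADR, 3 of 22 further T cell genes were higher (13.6%, below the share of all genes) and 1 lower, with Pdcd1, the exhaustion and activation receptor PD-1, at a log2 fold change of 3.69 ± 0.89 (adjusted p = 0.011) and Lcp2, an adaptor of receptor signalling, at 2.01 ± 0.54 (adjusted p = 0.018). Of 7 gamma delta and innate T cell genes 3 were higher (42.9%) and 1 lower, among them the gamma chain constant gene Tcrg-C1 (2.78 ± 0.68, adjusted p = 0.012) and the delta chain constant gene Trdc (2.00 ± 0.58, adjusted p = 0.024). Of 8 NK and cytotoxic genes only Ccl5, a chemokine of cytotoxic lymphocytes, was higher (12.5% of the list, log2 fold change 3.58 ± 0.79, adjusted p = 0.0085).

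Of 12 further B cell genes 5 were higher (41.7%, against 15.2% of all genes) and 1 lower in these kidneys, led by Cd72 (log2 fold change 1.76 ± 0.37, adjusted p = 0.0065) and the kinase gene Blk (1.97 ± 0.44, adjusted p = 0.0085). Of 14 plasma cell genes 3 were higher (21.4%, near the 15.2% of all genes) and 1 lower. Iglc1, a lambda light chain constant gene, rose by a log2 fold change of 3.94 ± 0.51 (adjusted p = 0.00093) and Irf4, a factor of plasma cell and T cell differentiation, by 2.50 ± 0.42 (adjusted p = 0.0023). Prdm1, which drives plasma cell differentiation and is also expressed outside lymphocytes, was the lower gene (-0.76 ± 0.23, adjusted p = 0.027).

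In TERT KO/KO kidneys after ADR 1 of 22 T cell genes (4.55%, near the 3.83% of all genes) and 0 of 8 NK and cytotoxic genes were higher, and none lower. The higher T cell gene was Tox (log2 fold change 1.78 ± 0.43, adjusted p = 0.034). Zbtb16, a factor of innate-like T cells that is also transcribed outside lymphocytes, was higher as well (2.68 ± 0.38, adjusted p = 0.0048). No plasma cell gene of these lists was higher, and Prdm1 was lower (-2.17 ± 0.29, adjusted p = 0.0041). Between TERT KO/KO ADR and TERT WT/WT ADR kidneys, Iglc1 was lower (-5.71 ± 0.79, adjusted p = 0.036), as were Igha, Igkc and Jchain.

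Genes of signals that attract or sustain lymphocytes were higher after ADR in both genotypes, 9 of 14 with 1 lower in TERT WT/WT kidneys (64.3%, against 15.2% of all genes) and 5 of 14 in TERT KO/KO kidneys (35.7%, against 3.83% of all genes). Ccl20, the ligand of CCR6, had log2 fold changes of 5.59 ± 0.75 in TERT WT/WT kidneys (adjusted p = 0.0011) and 4.89 ± 0.94 in TERT KO/KO kidneys (adjusted p = 0.015). Vcam1, an adhesion molecule for lymphocytes, had 4.12 ± 0.63 (adjusted p = 0.0018) and 3.55 ± 0.72 (adjusted p = 0.020). Macrophage markers were higher for 12 of 15 and lower for 1 in TERT WT/WT kidneys, and higher for 4 of 15 (26.7%) in TERT KO/KO kidneys, beside the same shares of all genes. In i-TERTci kidneys none of these lists had a call, and Ccl5 (4.06 ± 0.73), Vcam1 (3.64 ± 0.68) and Irf4 (3.06 ± 0.58) each had an adjusted p of 0.076.

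Lymph nodes near the kidney could bring lymphocytes into a sample. Their stromal genes Ccl21a and Chst4 were at 0 counts in all 20 libraries. How reads that fit more than 1 gene were counted is not given in the sources used here, so a count of 0 does not show absence. The count table holds 6 markers of this list of 7. They summed to between 1.55 and 3.68 CPM in TERT WT/WT ADR kidneys, against between 0.585 and 0.788 CPM in TERT WT/WT saline kidneys. Madcam1, an adhesion molecule of lymphoid and gut vessels, was the called gene of that list (log2 fold change 3.25 ± 0.62, adjusted p = 0.0042). In i-TERTci kidneys the list summed to between 1.45 and 4.07 CPM, against between 0.127 and 0.438 CPM in actin-rtTA+ kidneys. Cxcl13 was the 1 gene of the list with enough counts to be tested there, at a log2 fold change of 3.97 ± 0.95 (adjusted p = 0.079). The part of such tissue in the T and B cell results was not tested beyond these values.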

How the data were processed

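Whole-kidney total RNA of 20 mice was sequenced in paired ends. Per the labels and the study's methods, the authors checked reads with FastQC, trimmed them with Trimmomatic and aligned them to mm10 with STAR. They deposited raw counts per gene, with DESeq2 as their own test. The counter, its annotation and its strand setting are not given in the sources used here. All 20 count columns have a sample (0 do not), and 55144 of 55471 identifiers matched a GENCODE M21 symbol.

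Counts were tested with edgeR 4.0.16 in R 4.3.3 (filterByExpr with a minimum count of 10, TMM factors, robust quasi-likelihood F test, Benjamini-Hochberg over all genes tested, threshold 0.05). The SE is the absolute log2 fold change over the root of F. The 7 libraries of the transgenic experiment were fitted alone, 12 of the ADR experiment together, and 19 in 1 fit for the contrast across experiments. Replicate 2 of TERT KO/KO ADR, with liver transcripts, entered no fit. Alternatives were median-ratio factors, no filter, a mean of at least 1 CPM, DESeq2 1.42.0, limma 3.58.1 voom with sample quality weights, the newer quasi-likelihood method, a replicate block, the compared groups alone, the return of the left-out library and each replicate left out. The fit was tested on simulated data.

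All 35 genes may be named and are accounted for. Genes that passed are given with values, and of each further list up to 4 genes with the smallest p. A few results of the further lists are not reported here. Members and lists were chosen with earlier results of these data known. Every library is a separate sample by its labels, and p-values measure the spread between these samples. Promoters come from RefSeq (GRCm38.p6) and exons from GENCODE M21. Intervals cover counting error only. Where groups are said not to overlap, the share of all genes without overlap was not counted.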

Additional observations from a re-analysis of the deposited data

Results flagged for a closer look

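Of 70 groups of 4 libraries, 1 per gene and control group, 3 held a library far from the other 3 by Dixon's criterion, which chance alone gives for about 1 in 20. Cd3g was 0.817 CPM in TERT WT/WT saline replicate 1, against 0.340 to 0.376 CPM in the other 3. Igha was 14.4 CPM in TERT WT/WT saline replicate 2, against 4.74 to 5.23 CPM in the other 3. Mzb1 was 1.08 CPM in actin-rtTA+ R8 replicate 3, against 0.388 to 0.4999 CPM in the other 3. Replicate 2 of TERT KO/KO ADR, the library with liver transcripts that no comparison used, had 8.30 CPM of Zap70, against 0.372 to 3.43 CPM in all other libraries.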

How the results depend on the processing

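No result changed direction past the threshold under any alternative. For i-TERTci against actin-rtTA+ kidneys, the 0 T and NK calls became 12 with DESeq2 and 23 with limma voom, and 0 to 20 with 1 replicate left out; the 0 B and plasma cell calls became 5, 6 and 0 to 5. For ADR in TERT WT/WT kidneys, the 7 T and NK calls became 3 with a mean of at least 1 CPM, which tests fewer genes, 16 with limma voom, 3 with the replicate block, 1 with the left-out library kept, and 1 to 12 with 1 replicate left out, whereas the 4 B and plasma cell calls stayed between 3 and 5. For ADR in TERT KO/KO kidneys, the 0 T and NK calls became 1 with no filter, 2 with DESeq2, 1 with limma voom and 0 to 5 with 1 replicate left out. The single B and plasma cell call there (1) became 0 with a mean of at least 1 CPM, with the replicate block, with the compared groups alone and with the left-out library kept, and 0 to 1 with 1 replicate left out. Between genotypes after ADR, the 3 B and plasma cell calls became 0 with no filter, with limma voom, with the replicate block, with the compared groups alone and with the left-out library kept, and 0 to 3 with 1 replicate left out. Between genotypes after saline, limma voom gave 3 B and plasma cell calls instead of 0. The genotype difference in the ADR effect had 3 B and plasma cell calls with DESeq2 instead of 0, and 0 to 3 with 1 replicate left out, and the i-TERTci effect minus the ADR effect had 3 T and NK calls with limma voom instead of 0. The calls over all genes moved as well. For i-TERTci they went from 1 higher and 0 lower to 1512 and 422 with DESeq2 and 3497 and 2551 with limma voom. For ADR in TERT WT/WT kidneys limma voom gave 4796 higher and 4448 lower, instead of 2883 and 2281. Other causes of these changes were not tested.

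Replicate numbers are shared between groups. The correlation of same-numbered deviations was -0.123, 0.0780 and -0.0843 in the transgenic experiment. In the other it ran from -0.340, for replicate 1 of the saline groups, to 0.361, for replicate 1 of the ADR groups. Replicate 3 of the ADR groups had 0.241. The sign was not the same in all pairs, and the numbers were not taken to pair mice. Over all genes, the replicate block gave 2006 higher and 1606 lower calls for ADR in TERT WT/WT kidneys, instead of 2883 and 2281. Without TMM factors 204 of 210 group means of the 35 genes moved by less than their SD. Genes with few counts, such as Ctla4 and Ifng, are limited by depth.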
